A study of Danio rerio with 4 samples.

Results

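Wounds in the skin of adult zebrafish were compared between 4 days post wounding (dpw) and 2 dpw, over all cells that passed the study's own quality limits and over the cell classes within them. The limits kept cells with 500 to 30000 unique molecular identifiers (UMIs, each a tagged RNA molecule), 200 to 4500 detected genes and below 25% mitochondrial UMIs. They left 7315 cells at 4 dpw and 7754 at 2 dpw, together 15069 of the 29185 kept cells of all 4 libraries, which also cover 6 dpw and unwounded skin. Both groups were wild-type adults with no transgene named in the labels, and the study's methods name the TL and EK strains and an age of 6 to 8 months without saying which strain entered which library. The wounds were made with a laser, and at each stage the tissue of 3 fish was taken with a 4 mm biopsy punch, pooled, dissociated with Liberase and sequenced as 1 droplet-based library. The punch is wider than the wound, so a library holds wound tissue together with adjoining skin. The labels and the methods differ on the diameter of the wound. Unwounded skin was scraped off, so its levels are given as context only. The comparison asks how the granulation tissue at 4 dpw, when the study places its peak, differs from that at 2 dpw, when it has begun to form.

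In wounded skin a blood-borne inflammatory phase is followed by the build-up of granulation tissue, the provisional connective tissue beneath the closed epidermis. Neutrophils and macrophages clear debris and secrete cytokines such as interleukin 1 and tumour necrosis factor. Fibroblasts then deposit fibronectin and collagens, which are processed by hydroxylases and lysyl oxidases and bound by matricellular proteins, that is, secreted proteins that modulate the matrix and its contact with cells. Adult zebrafish close skin wounds without a lasting scar.

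The 2 libraries were alike in size and depth. They held 53270696 UMIs at 4 dpw and 56645346 at 2 dpw in kept cells, with medians of 4190.0 and 4042 UMIs, 1146 and 1178 genes and 3.76% and 3.75% mitochondrial UMIs per cell at 4 and 2 dpw. Only 15 cell barcodes were shared between them. The doublet caller marked 1 cell at 4 dpw and 0 at 2 dpw, which for libraries of this size means that it had not worked, so doublets remain among the cells. The upper limits had removed 499 cells at 4 dpw and 646 at 2 dpw. Of the UMIs of these and the kept cells together, the removed cells held 28.4% at 4 dpw and 33.7% at 2 dpw. Because each stage is 1 library, differences between fish could not be measured, no test was made and no p-value is given. Levels are given in CPM, the UMIs of a gene summed over cells and scaled to all UMIs of those cells. Ratios are 4 dpw over 2 dpw, with 95% intervals in brackets that cover counting error only. A gene was counted as higher or lower when its ratio was at least 2 or at most 0.5 and it had at least 50 UMIs over both libraries.

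The cellular make-up of the wounds differed between the stages, with fewer phagocytes and more connective tissue cells at 4 dpw. Clusters were named after marker genes, and names end in "-like" because they rest on transcripts. Macrophage-like cells numbered 708 at 4 dpw (9.68%) and 1381 at 2 dpw (17.8%), a share ratio of 0.543 [0.499 to 0.592], and neutrophil-like cells numbered 176 at 4 dpw (2.41%) and 463 at 2 dpw (5.97%), a ratio of 0.403 [0.3397 to 0.478]. Both classes thus held a smaller part of the 4 dpw library. Fibroblast-like cells stood the other way, numbering 1320 at 4 dpw (18.05%) and 636 at 2 dpw (8.202%), a ratio of 2.2 [2.01 to 2.405]. Endothelial-like cells, which line vessels, numbered 426 at 4 dpw (5.82%) and 291 at 2 dpw (3.75%), a ratio of 1.55 [1.34 to 1.79]. Mural-like cells, the contractile cells around vessels, numbered 131 at 4 dpw (1.79%) and 54 at 2 dpw (0.696%), a ratio of 2.57 [1.88 to 3.52]. The vessel-associated classes were thus higher as well. Keratinocyte-like cells (19.99% at 4 dpw, 20.7% at 2 dpw) and T/NK-like cells (12.6% at 4 dpw, 12.9% at 2 dpw) had intervals of the share ratio that included 1, 0.908 to 1.03 and 0.898 to 1.06. The keratinocyte-like share ratio was 0.857 with pooled clustering and 0.856 with classes by marker count per cell.

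**Figure D1:**
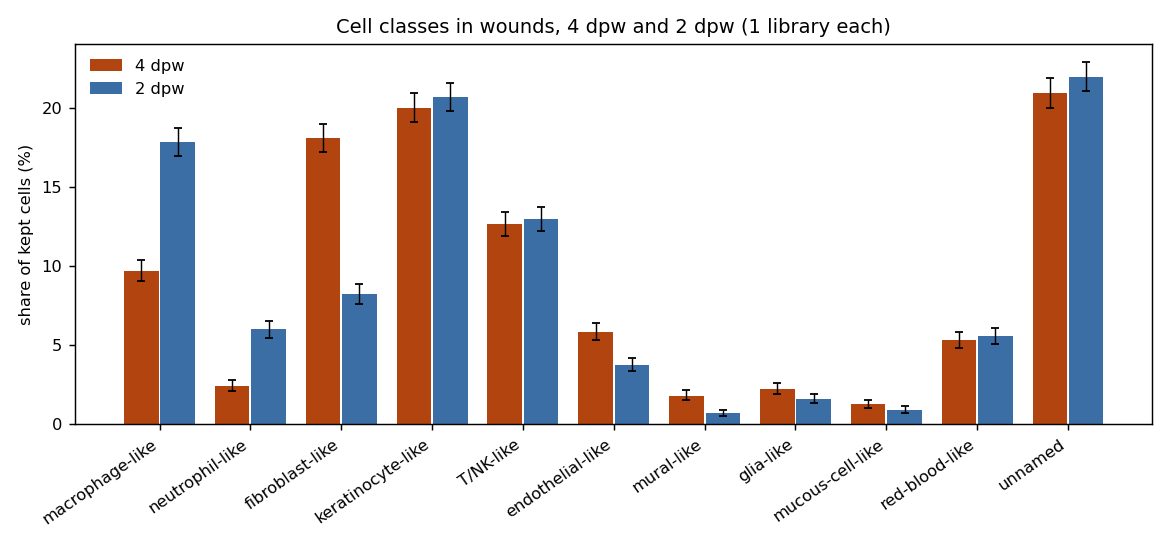
Share of kept cells (%) in each marker-defined class, with the 4 dpw library left of the 2 dpw library. Bars are shares of 1 library and error bars are exact 95% binomial intervals (counting error only). Fibroblast-like cells are higher at 4 dpw, macrophage-like and neutrophil-like cells are lower, and keratinocyte-like and T/NK-like bars are of like height.

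Unnamed clusters held 1528 cells at 4 dpw and 1701 at 2 dpw, and several of them bear on these shares. Clusters 19 and 20 held 79 and 148 cells at 4 dpw and 149 and 277 at 2 dpw. They carried only keratinocyte markers but under 3 of them, so the keratinocyte-like share leaves them out. Both held fewer cells at 4 dpw. Cluster 7, a shallow cluster of 292 cells at 4 dpw and 571 at 2 dpw, carried 5 of the macrophage markers but none among its leading genes, which included fabp11a and grn1. Cluster 14, with 415 cells at 4 dpw and 163 at 2 dpw, mixed 5 muscle, 3 mural and 2 fibroblast markers. Its leading genes included pabpc4, col18a1b, adamtsl7 and tagln. The paper reports col18a1b for a wound-specific cluster of fibroblasts. Whether cluster 14 holds such cells was not tested, and the fibroblast-like class leaves it out. Within the macrophage-like class, cluster 2 held 471 cells at 4 dpw and 813 at 2 dpw and cluster 12 held 237 at 4 dpw and 568 at 2 dpw. The 5 fibroblast-like clusters did not share the ratio of their class. Cluster 9, led by tnc, ogna and dkk3b, held 462 cells at 4 dpw and 102 at 2 dpw, and cluster 21, led by myoc, ucmaa and tnn, held 232 at 4 dpw and 83 at 2 dpw, whereas cluster 30 held 49 at 4 dpw and 58 at 2 dpw.

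Summed over the whole tissue, 15791 genes had enough UMIs to be compared. Of these 1412 (8.94%) were higher and 807 (5.11%) were lower at 4 dpw, and the median ratio was 0.958. In such sums, fewer cells of a type and less RNA per cell cannot be told apart, so the share of each class is given above and levels within classes follow below. Clusters were named from the markers of the classes, so the whole-tissue ratios of these markers are not separate evidence for the shares. In the whole tissue 6 of 7 neutrophil markers were lower (median ratio 0.355) and 10 of 13 fibroblast markers were higher (median 2.36). Of the 11 macrophage markers 3 were lower and 1 was higher (median 0.571).

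The most prominent group of higher genes was the fibrillar collagens, the rod-like collagens of dermis, tendon and cartilage. 10 of 13 compared members were higher and none was lower, against the 8.94% of all genes, and the median ratio of the list was 5.803. Their summed level was 23642 CPM at 4 dpw and 2851 CPM at 2 dpw. Type I collagen is encoded by 3 genes in zebrafish. col1a1a stood at 5305 CPM at 4 dpw and 605 CPM at 2 dpw, a ratio of 8.77 [8.67 to 8.87]. col1a1b stood at 6284 CPM at 4 dpw and 710.4 CPM at 2 dpw, a ratio of 8.85 [8.76 to 8.94]. col1a2 stood at 8286 CPM at 4 dpw and 983 CPM at 2 dpw, a ratio of 8.43 [8.36 to 8.505]. All 3 genes thus differed by similar factors. The largest ratios of the list belonged to col11a1b, a chain of the type XI collagen that nucleates fibrils, with 409.7 CPM at 4 dpw and 23.6 CPM at 2 dpw, a ratio of 17.3 [16.4 to 18.3], and to col2a1b, a type II chain, with 171 CPM at 4 dpw and 14.4 CPM at 2 dpw, a ratio of 11.9 [11.05 to 12.8]. Members with ratios below 1 were col11a2 (2.35 CPM at 4 dpw and 3.601 CPM at 2 dpw) and col5a2b (2.72 CPM at 4 dpw and 3.14 CPM at 2 dpw), and both reached ratios above 1 under other settings, col11a2 1.14 without the 5% highest doublet scores and col5a2b 2.47 without the upper limits on UMIs and genes.

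The other interstitial collagens, which link, sheathe or organise fibrils, followed with 13 of 18 members higher and 1 lower (median ratio 4.19). col12a1a, a collagen that coats fibrils, had 1467 CPM at 4 dpw and 227 CPM at 2 dpw, a ratio of 6.45 [6.33 to 6.57]. The type VI chains col6a1, col6a2 and col6a3|ENSDARG00000077139 had ratios of 5.97, 6.12 and 5.74. The largest ratio was that of col8a1b, with 67.7 CPM at 4 dpw and 3.301 CPM at 2 dpw, a ratio of 20.5 [17.7 to 23.9]. The single lower member was col10a1a, known from hypertrophic cartilage and scale-forming cells, with 106 CPM at 4 dpw and 255 CPM at 2 dpw, but 46.1% of its fibroblast-like UMIs at 4 dpw came from 1 cell. Its ratio was 0.414, against 1.07 without the 5% highest doublet scores.

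**Figure D2:**
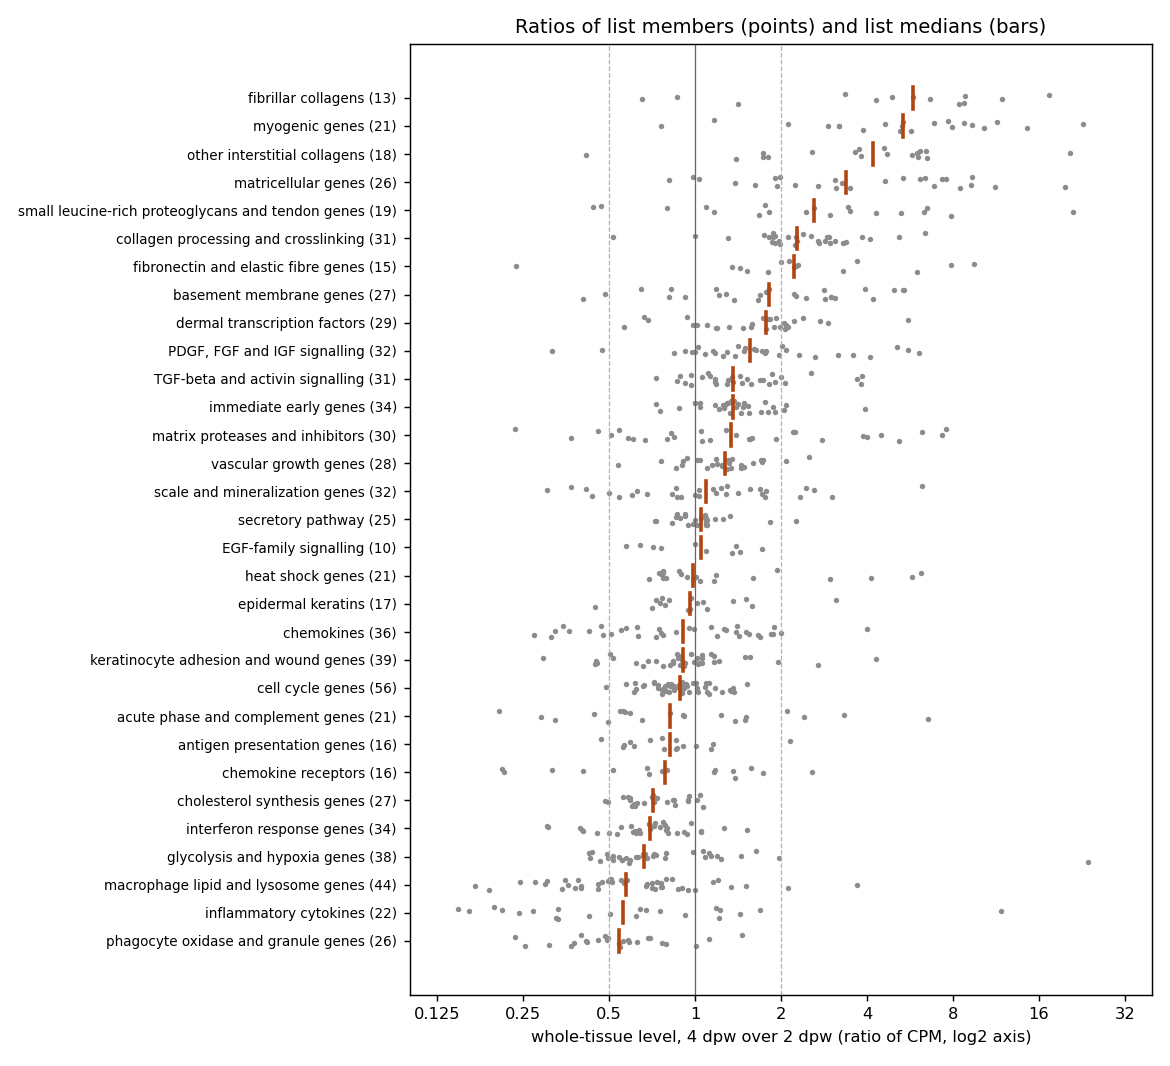
Whole-tissue ratios of 4 dpw over 2 dpw (log2 axis) for the compared members of 31 gene lists, 1 point per gene, with the list median as a bar and the number of compared genes in parentheses. Dashed lines mark 0.5-fold and 2-fold. Fibrillar collagens (median 5.803) and myogenic genes (5.34) lie farthest to the right, and phagocyte genes (0.543) and inflammatory cytokines (0.561) farthest to the left.

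Matricellular genes, 18 of 26 of them higher and none lower (median ratio 3.39), behaved much like the collagens. sparc, which encodes a collagen-binding glycoprotein, had 3788 CPM at 4 dpw and 618 CPM at 2 dpw, a ratio of 6.13 [6.06 to 6.199]. postnb, a periostin gene, had 2155 CPM at 4 dpw and 255 CPM at 2 dpw, a ratio of 8.44 [8.299 to 8.59]. thbs4b, a thrombospondin gene known from tendon, had 438 CPM at 4 dpw and 22.2 CPM at 2 dpw, a ratio of 19.7 [18.6 to 20.9]. Not all members differed. thbs1b (83.6 CPM at 4 dpw and 84.98 CPM at 2 dpw) and spp1 (32.2 CPM at 4 dpw and 31.2 CPM at 2 dpw) stood at nearly the same whole-tissue level at both stages. Among small leucine-rich proteoglycans and tendon genes 11 of 19 were higher and 2 lower (median 2.61). ogna, an osteoglycin gene, led with 198 CPM at 4 dpw and 9.39 CPM at 2 dpw, a ratio of 21.1 [19.4 to 23.1], whereas the versican genes vcana (8.18 CPM at 4 dpw and 17.5 CPM at 2 dpw) and vcanb (123 CPM at 4 dpw and 281 CPM at 2 dpw) were lower.

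Genes for the making of collagen were higher by smaller factors. Of the collagen processing and crosslinking list 19 of 31 were higher and none lower (median ratio 2.27). adamts2, which removes the amino-terminal propeptide of procollagen, had 51.9 CPM at 4 dpw and 8.103 CPM at 2 dpw, a ratio of 6.403 [5.799 to 7.08]. loxl2b, a lysyl oxidase gene, had 112 CPM at 4 dpw and 21.5 CPM at 2 dpw, a ratio of 5.19 [4.88 to 5.53]. plod2, the lysyl hydroxylase of collagen telopeptides, had 14.3 CPM at 4 dpw and 3.71 CPM at 2 dpw, a ratio of 3.85 [3.299 to 4.51], and serpinh1b, a collagen chaperone, had a ratio of 2.97. Without the upper limits on UMIs and genes the ratios of loxl2b and plod2 were 2.73 and 2.04. The general secretory pathway did not share this. 1 of 25 members, kdelr3, was higher, with 30.2 CPM at 4 dpw and 13.4 CPM at 2 dpw, and the median ratio was 1.05.

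Fibronectin and elastic fibre genes had 10 of 15 members higher and 1 lower (median ratio 2.22). The fibronectin genes fn1a and fn1b, main components of the provisional matrix, had ratios of 2.29 [2.24 to 2.33] and 2.14 [2.12 to 2.17]. mfap2, of microfibrils, had 132 CPM at 4 dpw and 16.8 CPM at 2 dpw, a ratio of 7.85 [7.33 to 8.41]. The lower member was mfap4, with 86.9 CPM at 4 dpw and 368 CPM at 2 dpw, and as related entries named MFAP4 exist in the annotation its count is uncertain. In the pooled clustering mfap4 was among the leading genes of a macrophage-like cluster. The part of the smaller macrophage-like share in its ratio was not tested. Of basement membrane genes 13 of 27 were higher and 2 lower (median 1.82). The higher ones included col4a1 (231 CPM at 4 dpw and 77.1 CPM at 2 dpw) and nid1a (108 CPM at 4 dpw and 25.9 CPM at 2 dpw), of the general basement membrane. The lower ones included col17a1b (82.9 CPM at 4 dpw and 204 CPM at 2 dpw), which anchors keratinocytes.

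Levels within the fibroblast-like class showed how much of this lay beyond the larger share of the class. Of 10308 compared genes 480 (4.66%) were higher and 760 (7.37%) lower, with a median ratio of 0.883. With TMM scaling factors, whose ratio between the libraries was 0.881 in this class and 0.909 in keratinocyte-like cells, the class had 682 higher and 500 lower. With unnamed cluster 14 counted as fibroblast-like it had 683 higher and 824 lower. Fibrillar collagens were higher within the class by a smaller factor than in the whole tissue. 9 of 12 members were higher, 2 were lower (median 2.75), and the summed level was 71623 CPM at 4 dpw and 18780.0 CPM at 2 dpw. In fibroblast-like cells col1a2 stood at 25249 CPM at 4 dpw and 6312 CPM at 2 dpw, a ratio of 4.00 [3.96 to 4.04]. postnb stood at 6471 CPM at 4 dpw and 924 CPM at 2 dpw, a ratio of 7.01 [6.83 to 7.18]. thbs4b stood at 1399.8 CPM at 4 dpw and 155 CPM at 2 dpw, a ratio of 9.01 [8.48 to 9.58]. The whole-tissue ratios of the same genes were 8.43, 8.44 and 19.7. thbs4b, ogna, col11a1b and col2a1b were among the leading genes of cluster 9, which held 462 cells at 4 dpw and 102 at 2 dpw. Ratios of these genes in the class thus do not separate cluster make-up from level. After every cell was thinned to 500 UMIs, col1a1a was found in 86.8% at 4 dpw and 60.7% at 2 dpw of fibroblast-like cells, and in 10.3% at 4 dpw and 3.02% at 2 dpw of all other cells.

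Cells outside the class also carried more collagen UMIs at 4 dpw. In T/NK-like cells the fibrillar collagens summed to 964 CPM at 4 dpw and 223 CPM at 2 dpw, and without the 3 cells that held most of them to 391 CPM at 4 dpw and 91.97 CPM at 2 dpw. In macrophage-like cells the sums without such cells were 659 CPM at 4 dpw and 98.1 CPM at 2 dpw. In neutrophil-like cells 92.5% of the collagen UMIs at 4 dpw lay in 3 cells. The source of the collagen UMIs outside fibroblast-like cells was not tested.

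For the main collagen genes the direction was shared by all 5 fibroblast-like clusters. In clusters 1, 9, 16, 21 and 30, the ratios of col1a2 were 2.91, 3.16, 2.53, 2.53 and 2.56, and those of col1a1a 2.83, 3.12, 2.68, 2.37 and 2.46. sparc had ratios of 2.67, 3.02, 2.73, 2.04 and 1.73. postnb differed more between clusters, with 5.33, 6.696, 10.2, 2.296 and 44.3, and its level in cluster 30 was 447 CPM at 4 dpw and 10.1 CPM at 2 dpw. Cluster 30 held 58 cells at 2 dpw, so its postnb level there, and with it the ratio of 44.3, rests on few UMIs. Of 53 listed genes that were led by this class, higher in it and comparable in 2 or more of its clusters, 51 had a ratio above 1 in every cluster where they could be compared. These genes were picked by their ratio over the same cells, so the count is not separate evidence for a shared direction. Of 14 lower genes picked in the same way, 7 had a ratio below 1 in every such cluster. The highest collagen level was that of cluster 9, where col1a2 stood at 34819 CPM at 4 dpw and 11002 CPM at 2 dpw, and this cluster made up a larger part of the class at 4 dpw.

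**Figure D3:**
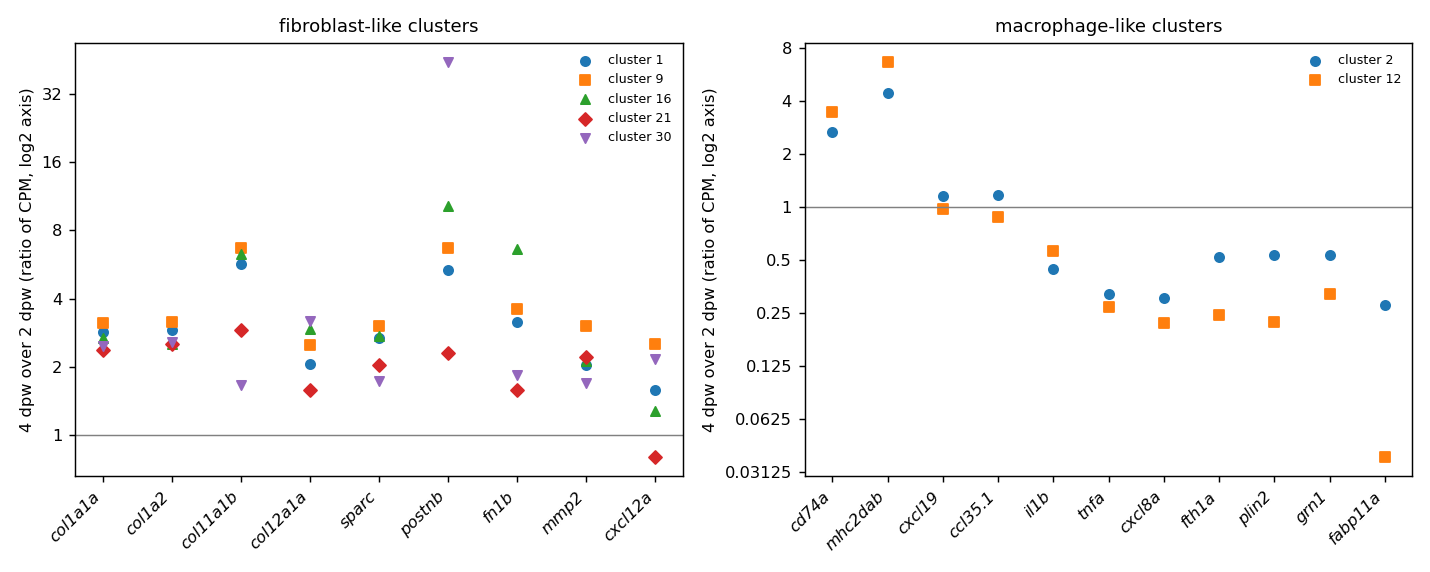
Ratios of 4 dpw over 2 dpw (log2 axis) within each fibroblast-like cluster (left) and each macrophage-like cluster (right) for genes named in the text, 1 symbol per cluster. The collagen and matricellular genes lie above 1 in all 5 fibroblast-like clusters, and in both macrophage-like clusters cd74a and mhc2dab lie above 1 while il1b, tnfa, fth1a, grn1 and fabp11a lie below 1.

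Other groups were lower within fibroblast-like cells. 15 of 29 interferon response genes were lower and none higher (median ratio 0.459), and so were 18 of 49 cell cycle genes (median 0.572), against 7.37% of all genes of the class. Of the chemokines 9 of 19 were lower. These included cxcl8a, with 126 CPM at 4 dpw and 472 CPM at 2 dpw, and cxcl19, a gene of macrophage-like cells, with 6.51 CPM at 4 dpw and 143 CPM at 2 dpw. In the cells outside the class cxcl19 stood at 749.9 CPM at 4 dpw and 1180.4 CPM at 2 dpw, and the part of their RNA in the fibroblast-like level was not tested. Of the scale and mineralization genes 8 of 24 were lower and 1 higher. enam, of the enamelin family of mineralized tissue proteins, had 224 CPM at 4 dpw and 1079.8 CPM at 2 dpw, with 60.4% of its UMIs at 4 dpw in 1 cell. By the rule for the largest differences in the class, the higher genes were bcan (35.6 CPM at 4 dpw and 1.12 CPM at 2 dpw), the proteoglycan brevican, BX511067.1, with 165 UMIs at 4 dpw and 0 at 2 dpw in the class, gpr143 (27.3 CPM at 4 dpw and 2.52 CPM at 2 dpw), a receptor of melanosomes, ogna, thbs4b and itgbl1 (10.5 CPM at 4 dpw and 1.26 CPM at 2 dpw). Pigment cell markers also stood higher in the whole tissue, 6 of 8 of them past 2-fold (median ratio 2.73), and their part in gpr143 was not tested. The lower ones were CR339041.1, with 0 UMIs at 4 dpw and 342 at 2 dpw, ero1a (1.87 CPM at 4 dpw and 14.8 CPM at 2 dpw), an oxidase of the endoplasmic reticulum, igfbp6b (8.83 CPM at 4 dpw and 60.2 CPM at 2 dpw), which binds insulin-like growth factors, defbl1 (7.61 CPM at 4 dpw and 51.8 CPM at 2 dpw), a beta-defensin, sgms2a (4.83 CPM at 4 dpw and 32.5 CPM at 2 dpw) and lipia (4.25 CPM at 4 dpw and 25.9 CPM at 2 dpw). Outside the class defbl1 stood the other way, at 27.1 CPM at 4 dpw and 3.52 CPM at 2 dpw. Its UMIs in the class at 2 dpw lay in 24 cells, with 18.1% in 1 cell. Those of sgms2a lay in 28 cells, with 12.9% in 1 cell. In the clustering without 2-fold genes sgms2a was a leading gene of a cluster of 25 cells at 4 dpw and 29 at 2 dpw. In the whole tissue BX511067.1 had 406 UMIs at 4 dpw and 1 at 2 dpw. CR339041.1 had 1 UMI at 4 dpw and 472 at 2 dpw, so neither difference was confined to fibroblast-like cells.

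Matrix proteases did not move as 1 group. In the whole tissue 10 of 30 proteases and inhibitors were higher and 3 lower (median ratio 1.34). mmp2, a gelatinase of connective tissue cells, had 353 CPM at 4 dpw and 68.2 CPM at 2 dpw, a ratio of 5.18 [5.00 to 5.36], and mmp15a|ENSDARG00000051962, a membrane-bound protease, had 13.05 CPM at 4 dpw and 1.78 CPM at 2 dpw, a ratio of 7.32 [5.93 to 9.11]. plaub, of the urokinase family that activates plasmin, had 107 CPM at 4 dpw and 14.1 CPM at 2 dpw, a ratio of 7.54 [6.999 to 8.13]. The proteases of neutrophil-like cells stood the other way. mmp9 had 105 CPM at 4 dpw and 286 CPM at 2 dpw, a ratio of 0.367 [0.356 to 0.378], while within neutrophil-like cells it stood at 5039.6 CPM at 4 dpw and 5845 CPM at 2 dpw, a ratio of 0.862 [0.827 to 0.898]. mmp13a|ENSDARG00000114451, a collagenase gene that shares its symbol with another entry, had 34.1 CPM at 4 dpw and 146 CPM at 2 dpw, and its reads may be split between the entries.

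Growth factor pathways differed less. Of the TGF-beta and activin list 5 of 31 were higher and none lower in the whole tissue (median ratio 1.36), and within fibroblast-like cells none was higher and 3 were lower (median 0.9997). The follistatin-like genes fstl1a and fstl1b had whole-tissue ratios of 3.85 and 3.70, and inhbaa, an activin subunit, had 157 CPM at 4 dpw and 78.8 CPM at 2 dpw. fstl3, an activin antagonist, stood at 61.1 CPM at 4 dpw and 57.8 CPM at 2 dpw in the whole tissue and at 147 CPM at 4 dpw and 372 CPM at 2 dpw in fibroblast-like cells. Of PDGF, FGF and IGF genes 10 of 32 were higher and 2 lower (median 1.55). Among them pdgfc, a platelet-derived growth factor ligand, had 2.37 CPM at 4 dpw and 0.388 CPM at 2 dpw, and pdgfrl, a receptor-like gene, had 293 CPM at 4 dpw and 52.4 CPM at 2 dpw. No EGF-family member was higher or lower by 2-fold among 10 compared. epgn, an epidermal EGF receptor ligand, had 47.8 CPM at 4 dpw and 83.4 CPM at 2 dpw. Dermal transcription factors had 9 of 29 members higher and none lower (median 1.77). snai1b, a regulator of the mesenchymal state, had 18.3 CPM at 4 dpw and 3.28 CPM at 2 dpw and, within fibroblast-like cells, 50.1 CPM at 4 dpw and 21.3 CPM at 2 dpw. meox1, a homeobox gene, had 29.4 CPM at 4 dpw and 10.1 CPM at 2 dpw and, within fibroblast-like cells, 64.2 CPM at 4 dpw and 26.6 CPM at 2 dpw.

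**Figure D4:**
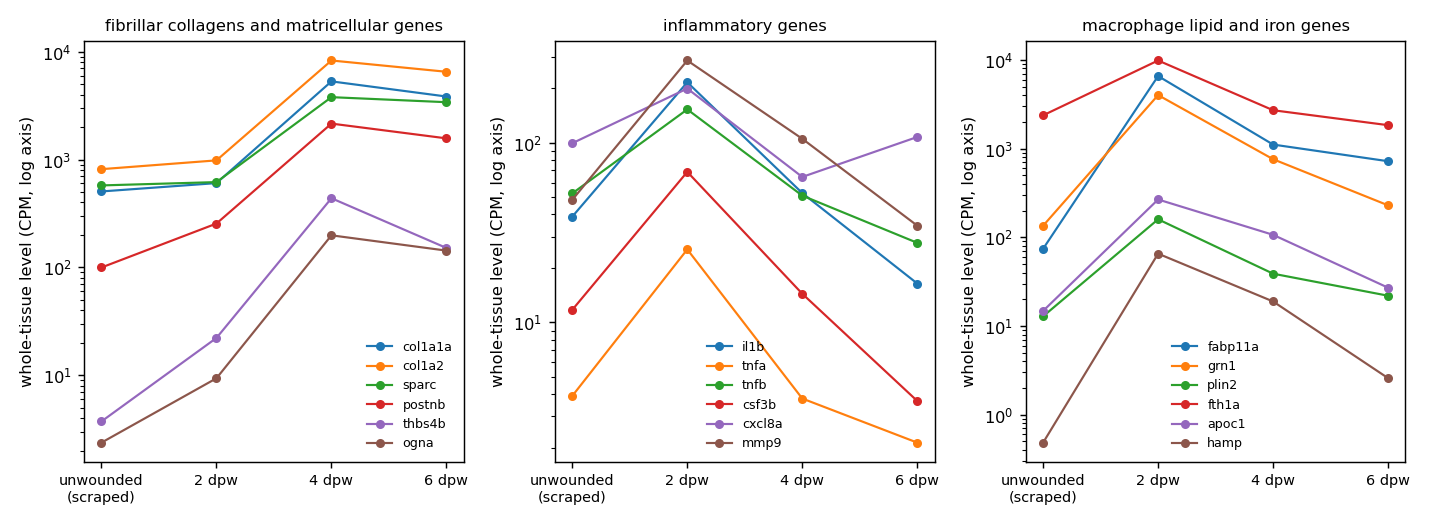
Whole-tissue levels (CPM, log axis) of 18 genes in unwounded skin (scraped) and in punched wounds at 2, 4 and 6 dpw, 1 library each, in 3 groups. The collagen and matricellular genes are at their highest at 4 dpw, the inflammatory genes shown are lower at 4 dpw than at 2 dpw, and so are the macrophage lipid and iron genes.

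Over the 4 libraries, col1a2, postnb and thbs4b were highest at 4 dpw. col1a2 stood at 815 CPM in unwounded skin, 983 CPM at 2 dpw, 8286 CPM at 4 dpw and 6512 CPM at 6 dpw, postnb at 99.9 CPM in unwounded skin, 255 CPM at 2 dpw, 2155 CPM at 4 dpw and 1572 CPM at 6 dpw and thbs4b at 3.74 CPM in unwounded skin, 22.2 CPM at 2 dpw, 438 CPM at 4 dpw and 152 CPM at 6 dpw. il1b, in contrast, stood at 38.8 CPM in unwounded skin, 217 CPM at 2 dpw, 52.4 CPM at 4 dpw and 16.5 CPM at 6 dpw.

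Inflammatory genes were lower at 4 dpw. Of the inflammatory cytokines 10 of 22 were lower and 1 higher (median ratio 0.561), against 5.11% lower among all genes. tnfa, tumour necrosis factor, had 3.77 CPM at 4 dpw and 25.5 CPM at 2 dpw, a ratio of 0.148 [0.127 to 0.172]. il1b, interleukin 1 beta, had 52.4 CPM at 4 dpw and 217 CPM at 2 dpw, a ratio of 0.242 [0.232 to 0.252]. csf3b, a granulocyte colony-stimulating factor, had 14.4 CPM at 4 dpw and 68.8 CPM at 2 dpw, a ratio of 0.2099 [0.194 to 0.227]. All these cytokines are led by macrophage-like cells among the named classes. The exception was csf1a, a growth factor of macrophages, with 9.55 CPM at 4 dpw and 0.812 CPM at 2 dpw, a ratio of 11.77 [8.69 to 16.3], for which fibroblast-like cells led (22.6 CPM at 4 dpw and 5.595 CPM at 2 dpw). m17, of the interleukin 6 family, and il12ba, an interleukin 12 subunit, had ratios of 0.162 and 0.197 at levels below 3 CPM.

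Chemokines, which guide leukocytes, were lower in part. 8 of 36 were lower and 1 higher (median ratio 0.905). cxcl8a, a neutrophil attractant, had 64.4 CPM at 4 dpw and 199.9 CPM at 2 dpw, a ratio of 0.322 [0.3102 to 0.335], whereas its relative cxcl8b.1 stood at 442 CPM at 4 dpw and 234 CPM at 2 dpw. cxcl19 had 533 CPM at 4 dpw and 1049.5 CPM at 2 dpw and ccl35.1 376 CPM at 4 dpw and 792 CPM at 2 dpw in the whole tissue. Within macrophage-like cells the levels of cxcl19 (4229 CPM at 4 dpw and 3413 CPM at 2 dpw) and ccl35.1 (2412 CPM at 4 dpw and 2276 CPM at 2 dpw) were not lower. The higher chemokine was cxcl12a, the ligand of Cxcr4, with 249.5 CPM at 4 dpw and 62.5 CPM at 2 dpw, a ratio of 3.99 [3.85 to 4.14]. Among chemokine receptors 4 of 16 were lower, including cxcr3.3 (18.1 CPM at 4 dpw and 84.9 CPM at 2 dpw), a scavenging receptor of zebrafish macrophages, and cxcr1 (14.5 CPM at 4 dpw and 45.9 CPM at 2 dpw).

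Genes of phagocyte effector functions were lower in part. Of phagocyte oxidase and granule genes 12 of 26 were lower and none higher (median ratio 0.543). The NADPH oxidase gene cybb had 15.1 CPM at 4 dpw and 49.2 CPM at 2 dpw. Within macrophage-like cells 1 and within neutrophil-like cells 1 of the compared members were lower (medians 0.8997 and 0.934), so that most of these genes stayed within 2-fold in the cells that express them. Acute phase and complement genes were mixed, with 4 of 21 higher and 5 lower. hamp, the iron hormone hepcidin, had 18.9 CPM at 4 dpw and 65.4 CPM at 2 dpw, a ratio of 0.289 [0.2695 to 0.3102], and c6|ENSDARG00000057113, a complement component led by fibroblast-like cells, had 72.7 CPM at 4 dpw and 11.2 CPM at 2 dpw.

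Macrophage-like cells differed in what they expressed as well as in number. Of 9081 compared genes 378 (4.16%) were higher and 399 (4.39%) lower within the class, with a median ratio of 0.953. The split moved both ways under other settings. With totals that leave out haemoglobin, mitochondrial and ribosomal protein genes it was 460 higher and 313 lower. Clustering without the genes that differed 2-fold gave 550 higher and 381 lower. Without the 5% highest doublet scores it was 254 higher and 437 lower, and with pooled clustering 244 and 403. Leaving out the cell with the most UMIs of each gene gave 288 higher and 459 lower. Cytokines were lower also per class, 5 of 12 of them with none higher (median 0.665). tnfa stood at 23.9 CPM at 4 dpw and 76.6 CPM at 2 dpw, a ratio of 0.312 [0.263 to 0.369]. il1b stood at 213 CPM at 4 dpw and 442 CPM at 2 dpw, a ratio of 0.482 [0.455 to 0.511]. In both macrophage-like clusters the ratios were below 1, 0.318 and 0.269 for tnfa and 0.445 and 0.562 for il1b in clusters 2 and 12. Macrophage-like cells were shallower at 4 dpw, with a median of 8909.5 UMIs, against 11492 at 2 dpw.

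Lipid and lysosome genes of macrophages were lower in part. In the whole tissue 17 of 44 were lower and 2 higher (median ratio 0.571), and their summed level was 13076 CPM at 4 dpw and 36307 CPM at 2 dpw. fabp11a, a fatty acid-binding protein, had 1109 CPM at 4 dpw and 6563 CPM at 2 dpw, a ratio of 0.169 [0.168 to 0.1705]. grn1, a granulin, had 758 CPM at 4 dpw and 4005 CPM at 2 dpw, a ratio of 0.189 [0.187 to 0.191]. fth1a, a ferritin heavy chain that stores iron, had 2703 CPM at 4 dpw and 9829 CPM at 2 dpw, a ratio of 0.275 [0.273 to 0.277]. Within macrophage-like cells 8 of 42 were lower and 2 higher (median 0.8602). There fabp11a stood at 2135 CPM at 4 dpw and 18688 CPM at 2 dpw, a ratio of 0.114 [0.112 to 0.116], and plin2, which coats lipid droplets, at 220.1 CPM at 4 dpw and 482 CPM at 2 dpw, a ratio of 0.456 [0.431 to 0.483]. The difference in fabp11a was larger in cluster 12 (1232 CPM at 4 dpw and 32383 CPM at 2 dpw) than in cluster 2 (2585 CPM at 4 dpw and 9342 CPM at 2 dpw). Endothelial-like cells, which also express fabp11a, differed little, with 15339 CPM at 4 dpw and 17264 CPM at 2 dpw.

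Some antigen presentation genes were higher in these cells. Within macrophage-like cells 3 of 14 were higher and none lower (median ratio 1.2003), and the summed level was 21478 CPM at 4 dpw and 13277 CPM at 2 dpw. cd74a, the invariant chain of class II molecules, stood at 6618 CPM at 4 dpw and 2249.9 CPM at 2 dpw, a ratio of 2.94 [2.901 to 2.98]. mhc2dab, a class II chain, stood at 687 CPM at 4 dpw and 137 CPM at 2 dpw, a ratio of 5.03 [4.78 to 5.297]. Both macrophage-like clusters shared this, with ratios of 2.64 and 3.46 for cd74a in clusters 2 and 12. In the whole tissue, where macrophage-like cells were fewer, cd74a had 1506 CPM at 4 dpw and 1499 CPM at 2 dpw, a ratio of 1.01. Immediate early genes, which respond to stimuli and to tissue dissociation, were also higher in the class, 9 of 29 with 1 lower (median 1.599). fosab stood at 385 CPM at 4 dpw and 129.6 CPM at 2 dpw.

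By the rule for the largest differences, the genes higher in macrophage-like cells included jac3 (40.6 CPM at 4 dpw and 2.71 CPM at 2 dpw), jac9 (34.7 CPM at 4 dpw and 2.83 CPM at 2 dpw) and bpifcl (24.2 CPM at 4 dpw and 3.197 CPM at 2 dpw), and those lower included tfa, a transferrin gene (1.23 CPM at 4 dpw and 19.9 CPM at 2 dpw), CU929150.1 (3.395 CPM at 4 dpw and 77.8 CPM at 2 dpw) and si:ch211-284o19.8 (3.86 CPM at 4 dpw and 40.95 CPM at 2 dpw). Neutrophil-like cells led si:ch211-284o19.8, of whose UMIs macrophage-like cells held 8.53% at 4 dpw and 28.5% at 2 dpw. Outside macrophage-like cells it was lower too (5.73 CPM at 4 dpw and 41.4 CPM at 2 dpw), and the part of other cells in its level was not tested. clstn2 had 2 UMIs and chga 0 UMIs at 4 dpw, against 153 and 134 UMIs at 2 dpw. In the whole tissue g0s2, which restrains the breakdown of stored fat in mammals, had 19.4 CPM at 4 dpw and 440.5 CPM at 2 dpw, a ratio of 0.04398 [0.0413 to 0.0468]. acod1, which makes the immune metabolite itaconate, had 3.02 CPM at 4 dpw and 42.3 CPM at 2 dpw, a ratio of 0.0715 [0.0606 to 0.0839]. lgals9l1, a galectin gene, had 30.6 CPM at 4 dpw and 269 CPM at 2 dpw, a ratio of 0.114 [0.108 to 0.1198]. All 3 are led by macrophage-like cells.

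Neutrophil-like cells numbered 176 at 4 dpw, so fewer genes could be compared. Of 3767 genes 119 (3.16%) were higher and 190 (5.04%) lower (median ratio 0.961). Leaving out the cell with the most UMIs of each gene gave 67 higher and 245 lower. Higher genes by the rule were led by si:ch211-165d12.4 (608 CPM at 4 dpw and 126 CPM at 2 dpw) and si:dkey-42l23.4 (222 CPM at 4 dpw and 78.3 CPM at 2 dpw), and included ccr9a, a chemokine receptor gene and T/NK marker (1597 CPM at 4 dpw and 664 CPM at 2 dpw), and prdm1a, a transcriptional repressor (336 CPM at 4 dpw and 144 CPM at 2 dpw). T/NK-like cells led si:ch211-165d12.4, of whose UMIs neutrophil-like cells held 10.1% at 4 dpw and 4.61% at 2 dpw. Macrophage-like cells led ccr9a, with 25.2% of its UMIs at 4 dpw and 39.2% at 2 dpw. The part of T/NK transcripts and of those of other classes in these values was not tested. Lower genes included atp6v1ab, of the proton pump of lysosomes (8.61 CPM at 4 dpw and 95.4 CPM at 2 dpw), cox4i1l, of cytochrome oxidase (12.1 CPM at 4 dpw and 129.7 CPM at 2 dpw), and rab20, a small GTPase (17.2 CPM at 4 dpw and 103 CPM at 2 dpw). Outside neutrophil-like cells the same 3 genes were lower too, with atp6v1ab at 26.3 CPM at 4 dpw and 75.9 CPM at 2 dpw. Macrophage-like cells led all 3. Neutrophil-like cells held 3.85% of the atp6v1ab, 13.5% of the cox4i1l and 6.81% of the rab20 UMIs at 2 dpw. The part of other cells in these levels was not tested either.

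Keratinocyte-like cells had fewer genes past 2-fold than fibroblast-like or macrophage-like cells. Of 10718 compared genes 154 (1.44%) were higher and 391 (3.65%) lower (median ratio 0.908). The split was 215 higher and 280 lower with TMM factors and 348 higher and 403 lower with equal weight for every cell. Adhesion and wound genes had 4 of 35 members lower and none higher (median 0.8401). The lower ones included both chains of the hemidesmosome integrin. itgb4 stood at 548 CPM at 4 dpw and 1253 CPM at 2 dpw, a ratio of 0.437 [0.426 to 0.448]. itga6b stood at 318 CPM at 4 dpw and 737 CPM at 2 dpw, a ratio of 0.431 [0.417 to 0.446]. Their partner col17a1b, the hemidesmosome collagen, stood at 189 CPM at 4 dpw and 438 CPM at 2 dpw. In the 2 keratinocyte-like clusters with the highest levels of itgb4, 11 and 13, the ratios of itgb4 were 0.791 and 0.923. Unnamed cluster 19, with 79 cells at 4 dpw and 149 at 2 dpw, also had itgb4 among its leading genes and was not compared. Cluster 11 made up less of the class at 4 dpw, with 213 cells at 4 dpw and 319 at 2 dpw.

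fn1b had opposite ratios in keratinocyte-like and fibroblast-like cells. It stood at 731 CPM at 4 dpw and 1886 CPM at 2 dpw, a ratio of 0.387 [0.379 to 0.396] in keratinocyte-like cells, and at 4140.1 CPM at 4 dpw and 1055 CPM at 2 dpw, a ratio of 3.93 [3.83 to 4.02] in fibroblast-like cells. The whole-tissue ratio of 2.14 lay between them, and the difference between the classes was not tested. Of the keratins, which form the intermediate filaments of epithelia, 1 of 17 was higher and 2 were lower (median 0.9304). krt18a.1 stood at 1337 CPM at 4 dpw and 3429.5 CPM at 2 dpw, a ratio of 0.390 [0.384 to 0.396], krt15 at 2467 CPM at 4 dpw and 4325 CPM at 2 dpw and krt17 at 2786 CPM at 4 dpw and 1550.4 CPM at 2 dpw. Among glycolysis and hypoxia genes 4 of 28 were lower (median 0.673), including aldocb (9.83 CPM at 4 dpw and 39.1 CPM at 2 dpw) and eno1a (22.5 CPM at 4 dpw and 76.4 CPM at 2 dpw). By the rule for the largest differences zgc:152753 ranked first among higher genes, with 200 UMIs at 4 dpw and 3 at 2 dpw. It was not confined to this class, with 177 and 0 UMIs in macrophage-like cells. KYAT3|ENSDARG00000102423 ranked first among lower genes, with 0 UMIs at 4 dpw, 256 at 2 dpw and 285 at 6 dpw. Lower in the ranking, klf17, a transcription factor of the surface epidermis in zebrafish, was higher (91.8 CPM at 4 dpw and 35.17 CPM at 2 dpw). scpp8, of the calcium-binding phosphoprotein family (89.8 CPM at 4 dpw and 511 CPM at 2 dpw), and cdh29 (7.205 CPM at 4 dpw and 34.7 CPM at 2 dpw) were lower.

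Of 6901 genes compared in T/NK-like cells 84 (1.22%) were higher and 107 (1.55%) lower (median ratio 0.994), and pooled clustering without integration gave 95 higher and 357 lower. The higher genes by the rule included nkl.1, an NK-lysin (44.4 CPM at 4 dpw and 10.8 CPM at 2 dpw), and nitr4a, an innate immune-type receptor (48.2 CPM at 4 dpw and 13.3 CPM at 2 dpw). Among the lower ones were the immunoglobulin genes igl4v8|ENSDARG00000079843 (425 CPM at 4 dpw and 2519.7 CPM at 2 dpw) and igic1s1 (66.6 CPM at 4 dpw and 193 CPM at 2 dpw), which mark B-lineage cells, and they had UMIs in only 39 and 34 cells of the class at 2 dpw. Of cell cycle genes 2 of 50 were lower in this class. In endothelial-like cells 85 of 4165 genes (2.04%) were higher and 150 (3.6%) lower (median 0.947), and with TMM factors 104 higher and 108 lower. Clustering without the genes that differed 2-fold gave 153 higher and 338 lower in endothelial-like cells, and marker counts per cell 126 higher and 273 lower. None of 21 vascular growth genes differed by 2-fold in these cells. The higher genes by the rule included inhbaa (181 CPM at 4 dpw and 68.7 CPM at 2 dpw) and ndufa4l2a, a hypoxia-inducible mitochondrial protein gene (88.1 CPM at 4 dpw and 37.8 CPM at 2 dpw), and the lower ones adamts9, a protease (32.3 CPM at 4 dpw and 81.9 CPM at 2 dpw). Outside endothelial-like cells inhbaa (157 CPM at 4 dpw and 79.04 CPM at 2 dpw) was higher at 4 dpw too. So was ndufa4l2a (29.2 CPM at 4 dpw and 11.2 CPM at 2 dpw). Endothelial-like cells held 3.41% of the inhbaa UMIs and 8.42% of the ndufa4l2a UMIs at 4 dpw. The part of other cells in these levels was not tested. In glia-like cells col18a1b stood at 491 CPM at 4 dpw and 143 CPM at 2 dpw and tuba8l3, a tubulin, at 487 CPM at 4 dpw and 1251 CPM at 2 dpw. Outside glia-like cells col18a1b was higher at 4 dpw too (25.4 CPM at 4 dpw and 5.07 CPM at 2 dpw). Glia-like cells held 8.44% of its UMIs at 4 dpw and 9.21% at 2 dpw, and the part of other cells in their level was not tested. In red-blood-like cells the globin hbba2 stood at 7794 CPM at 4 dpw and 3015 CPM at 2 dpw and mt2, a metallothionein, at 381 CPM at 4 dpw and 1376 CPM at 2 dpw.

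Of the general programmes, most varied little in the whole tissue, where 8.94% of all genes were higher and 5.11% lower. Cell cycle genes had 1 of 56 members lower and none higher (median ratio 0.883), and pcna, the sliding clamp of DNA replication, stood at 67.1 CPM at 4 dpw and 82.3 CPM at 2 dpw. Interferon response genes had 6 of 34 lower and none higher (median 0.694). Among them mxc, an antiviral GTPase, had 9.69 CPM at 4 dpw and 31.6 CPM at 2 dpw. Glycolysis and hypoxia genes had 6 of 38 lower and 1 higher (median 0.663), with eno1a, an enolase, at 148 CPM at 4 dpw and 341 CPM at 2 dpw. Immediate early genes had 3 of 34 higher and none lower (median 1.35), near the 8.94% of all genes. Heat shock genes had 4 of 21 higher, and cholesterol synthesis genes 2 of 27 lower (median 0.713), with msmo1 at 74.6 CPM at 4 dpw and 105 CPM at 2 dpw. Vascular growth genes had 2 of 28 higher and none lower, also near the 8.94% of all genes. The 2 included angpt1 (3.72 CPM at 4 dpw and 1.48 CPM at 2 dpw), a ligand that stabilises vessels.

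Muscle genes were higher at 4 dpw too. Of the myogenic genes 19 of 21 were higher and none lower (median ratio 5.34), and all 13 compared muscle markers were higher (median 10.6). actc1b, a striated muscle actin, had 103 CPM at 4 dpw and 4.502 CPM at 2 dpw, a ratio of 22.9 [20.2 to 26.05], and myf5, a myogenic transcription factor, had 4.88 CPM at 4 dpw and 0.477 CPM at 2 dpw, a ratio of 10.2, which was 1.97 without the upper limits on UMIs and genes. Few cells carried them. Cells with UMIs of 5 or more muscle markers numbered 58 at 4 dpw and 6 at 2 dpw, and 20 cells held 65.8% of the muscle marker UMIs at 4 dpw and 47.6% at 2 dpw. Muscle lies beneath the skin, and the depth of the punches was not given in the sources used here. How much muscle each punch held and how much the wound differed cannot be told apart.

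The share of the leading class and the level within it were set side by side for all listed genes. For each gene the leading class is the named class that held most of its UMIs. In the whole tissue 174 listed genes were higher, and 164 of them were led by fibroblast-like cells, whose UMIs made up 29.1% of all UMIs at 4 dpw and 12.6% at 2 dpw. Within the leading class 163 of the 174 had enough UMIs to be compared, of which 68 were higher as well, 94 were within 2-fold and 1 was lower, col15a1b (1.87 CPM at 4 dpw and 4.62 CPM at 2 dpw within fibroblast-like cells), named here after its values were seen. Of the 90 listed genes that were lower, 57 were led by macrophage-like cells, whose UMIs made up 12.2% of all UMIs at 4 dpw and 28.7% at 2 dpw. Within the leading class 85 of the 90 could be compared, of which 39 were lower as well and 46 within 2-fold. Type I collagens, sparc and postnb belonged to the genes that differed on both counts, and so did tnfa, il1b, fabp11a and grn1. Genes such as serpinh1b (777 CPM at 4 dpw and 589 CPM at 2 dpw within fibroblast-like cells) and cybb (72.8 CPM at 4 dpw and 107 CPM at 2 dpw within macrophage-like cells) passed 2-fold in the whole tissue alone.

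**Figure D5:**
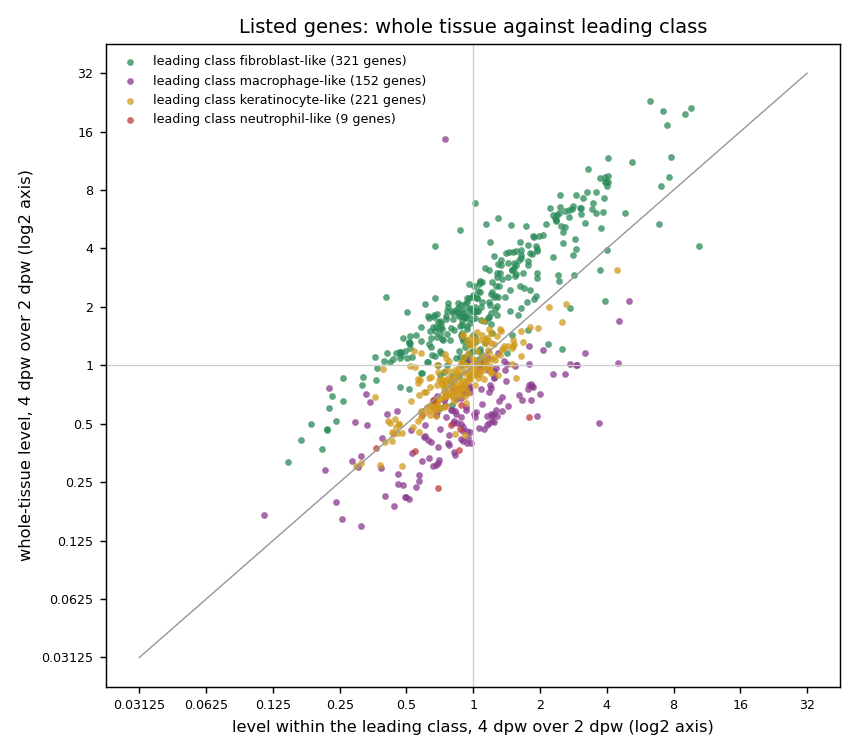
Ratio of 4 dpw over 2 dpw in the whole tissue (vertical, log2 axis) against the ratio within the leading class (horizontal, log2 axis), 1 point per listed gene, coloured by leading class, with a line where both are equal. Most fibroblast-led genes lie above the line and most macrophage-led genes below it. This side follows from how the ratios are built, because the whole-tissue ratio contains the UMI share of the leading class. That share was 2.31 times its 2 dpw value for fibroblast-like cells and 0.424 times for macrophage-like cells.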

How the data were processed

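The authors deposited unnormalised UMI count matrices, 1 per library (10x Genomics, 3' chemistry), made with Cell Ranger 6.1.2 per the file headers. The submitters' processing notes name GRCz11 and Seurat 4.3.0. The matrices held 25432 genes, of which 1244 share a symbol with another identifier. Cells were kept with 500 to 30000 UMIs, 200 to 4500 genes and under 25% mitochondrial UMIs. The 4 libraries were integrated in R 4.3.3 by means of sctransform 0.4.2 and Seurat 5.3.0 (3500 variable genes with listed genes then left out, 17 dimensions, resolution 1), which gave 40 clusters. A cluster was named after the class with most markers (at least 3, each in 10% of cells and 2-fold above the rest) unless its 10 leading genes in at least 25% of cells pointed elsewhere or it was shallow. A cluster led by itga2b and gp1bb was left unnamed after its genes were seen. Scrublet marked 1 cell in all and none was removed.

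UMIs were summed over cells and scaled to CPM. Ratios were taken for genes with at least 50 UMIs over both libraries, with exact conditional 95% intervals, shares with Clopper-Pearson intervals and share ratios with log-normal intervals. Intervals cover counting error only. Counts under 3 UMIs were raised to 3 in fitted ratios. Shares of cells with a gene were taken after thinning to 500 UMIs. With 1 library per stage no test was made. Genes named were list members with the largest, the smallest or the highest values, the 12 largest and smallest ratios of the whole tissue (at least 300 UMIs) and the 6 largest and smallest of each class (at least 100 UMIs), with at least 10 cells and no cell holding over 20%. The comparison, members, 31 lists and markers were chosen with earlier results of these data known. Of 951 listed genes 825 were compared. Alternatives covered cell limits, clustering, scaling (edgeR 4.0.16 for TMM factors only), UMI minimum and fold. All other steps ran in Python 3.11.15 with scanpy 1.11.5, scipy 1.17.1, anndata 0.12.19, matplotlib 3.10.9, numpy 2.4.6 and pandas 2.3.3, and computations were tested on simulated data.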

Additional observations from a re-analysis of the deposited data

Results flagged for a closer look

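Cells above the upper limits on UMIs and genes entered only the whole-tissue setting without these limits. They made up 6.39% of cells at 4 dpw and 7.69% at 2 dpw, above the 4.004% in unwounded skin (exact 95% intervals 5.85 to 6.95%, 7.13 to 8.28% and 3.52 to 4.53%). By their markers most were keratinocytes (275 at 4 dpw, 420 at 2 dpw) or fibroblasts (160 at 4 dpw, 145 at 2 dpw).

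Genes with opposite ratios past 2-fold in different classes were fn1b, at 3.93 in fibroblast-like and 0.387 in keratinocyte-like cells, and lipf, a lipase gene, at 2.12 in fibroblast-like cells (133 CPM at 4 dpw and 62.7 CPM at 2 dpw) and 0.312 in macrophage-like cells (227 CPM at 4 dpw and 725 CPM at 2 dpw). With 1 library per stage these differences were not tested.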

How the results depend on the processing

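No paired analysis was possible because each stage had 1 library, and no replicate could be left out. At 20 UMIs the genes higher and lower numbered 739 and 680 in macrophage-like cells, 386 and 393 in neutrophil-like cells, 355 and 697 in keratinocyte-like cells, 252 and 319 in T/NK-like cells, 283 and 502 in endothelial-like cells, and 1256 were lower in fibroblast-like cells. At 200 UMIs 871 genes were higher in the whole tissue, and the classes had 133 and 205 in macrophage-like cells, 28 and 68 in neutrophil-like cells, 273 and 277 in fibroblast-like cells, 42 and 168 in keratinocyte-like cells, 18 and 22 in T/NK-like cells, 13 and 23 in endothelial-like cells. At 1.5-fold the counts were 2547 and 2136 in the whole tissue and 894 and 1114 in macrophage-like cells, 354 and 577 in neutrophil-like cells, 1040 and 2078 in fibroblast-like cells, 448 and 1301 in keratinocyte-like cells, 285 and 382 in T/NK-like cells, 329 and 543 in endothelial-like cells, and 199 listed genes differed on both counts, against 107 at 2-fold. With equal weight for every cell 530 whole-tissue genes were lower, and 348, 132 and 130 were higher in keratinocyte-like, T/NK-like and endothelial-like cells. With TMM factors 500 genes were lower in fibroblast-like cells. Without the top cell 67 were higher in neutrophil-like cells. Pooled clustering gave 244 higher in macrophage-like cells, 357 lower in T/NK-like cells and a keratinocyte-like share ratio of 0.857. Marker counts per cell gave share ratios of 2.901 for fibroblast-like and 0.856 for keratinocyte-like cells, 65 and 266 higher in neutrophil-like and keratinocyte-like cells and 273 lower in endothelial-like cells. Clustering without 2-fold genes gave 153 higher and 338 lower in endothelial-like cells. Fewer or more genes entered at other UMI minimums; the cause of the other shifts was not tested. Of the ratios past 2-fold, those that changed direction were those of col10a1a without the 5% highest doublet scores (1.07), scpp5 with equal weight (2.03 in the whole tissue, 3.13 in keratinocyte-like cells) and, without upper limits, scpp5 (1.07) and enam (1.32). Over the genes that the naming rules pick, 271 of 334 ratios past 2-fold stayed past it with equal weight, and 82 of all 684 ratios moved by over 1.5 times. Without upper limits 149 of 168 stayed and 29 of 328 moved. The settings without upper limits, with cluster 7 as macrophage-like and with cluster 14 as fibroblast-like were chosen after seeing the data.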

Other observations

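13 genes were found almost in 1 library only, at a ratio of at least 50. BX511067.1 and CR339041.1, named above for fibroblast-like cells, were among them. MFAP4|ENSDARG00000116066 had 32771 UMIs at 4 dpw and 2 at 2 dpw, and MFAP4|ENSDARG00000111491 had 12145 UMIs at 4 dpw and 0 at 2 dpw, while 6 dpw had 1 and 0 UMIs. Cells with 5 or more UMIs of MFAP4|ENSDARG00000116066 numbered 44, and 90.1% of its UMIs lay in unnamed cluster 14. Of these cells 35 also had UMIs of cx34.5, a gap junction gene, 21 of gsdf and 10 of cyp17a1, known from the gonad. Cluster 14 held 28 of the 44 cells, so its count and the whole-tissue sums at 4 dpw include them. Pooled clustering gave a cluster of 73 cells at 4 dpw and 0 at 2 dpw. Its leading genes included both MFAP4 entries, cx34.5, gsdf, hsd17b1 and cyp19a1a. In contrast dicp1.17 (328 UMIs at 4 dpw and 1 at 2 dpw), an immunoglobulin-superfamily gene, and mhc1lda (1 UMIs at 4 dpw and 392 at 2 dpw), a class I gene, were spread over 147 and 301 cells, with 92.99% and 90.6% of their UMIs in macrophage-like cells. The strain of each library is not given in the sources used here.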
